A study of Rattus norvegicus with 4 samples.

Results

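The genes of the microtubule motors were followed in lumbar dorsal root ganglia (DRGs) of young rats given cisplatin. They were taken as the protein-coding genes whose symbols name a numbered kinesin (Kif), a kinesin accessory or light chain (Kifap3, Klc), a cytoplasmic dynein chain (Dync1, Dync2, Dynl), a numbered dynactin subunit (Dctn) or the dynein regulators Nde1, Ndel1 and Pafah1b1. This rule found 67 of the 22293 protein-coding genes in the deposited table, of which 66 had at least 1 count and 64 passed edgeR's filter on low counts. The genes that did not pass were Kif2b with no count, Kif12 with 1 count in a single library, and Kif6 with 3 to 9 counts per library. The rule uses no measured value.

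Wild-type neonatal Wistar rats received either vehicle (phosphate-buffered saline) or cisplatin, a platinum chemotherapeutic, at 0.3 mg/kg by intraperitoneal injection at P14 and P16. Each group is 2 libraries of polyadenylated RNA, and each library pools a few lumbar DRGs. The labels place the tissue 16 days after treatment, whereas the methods of the study place it at P23, and which sex each library came from is not given in the sources used here. The total was between 21384801 and 25618417 counts per library, all pairs of libraries differed by more than sampling noise, and no pair was treated as 1 sample. All 12 neuron markers and all 10 Schwann cell markers were detected in every library.

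Kinesins are motors that mostly walk towards microtubule plus ends, which in an axon means away from the cell body. Cytoplasmic dynein, helped by its activator dynactin, walks the other way and returns endosomes, signals and worn organelles to the soma. Sensory neurons of the DRG depend on both, since their axons reach the skin and the spinal cord, and inherited defects in several of these genes cause neuropathies.

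The motor genes did not move as 1 block. Kinesin-3 genes and most interphase kinesins outside kinesin-1 and kinesin-2 had lower values after cisplatin, among them the synaptic vesicle motor Kif1a at 2.05-fold lower. Most small dynein light chains and most dynactin subunits had higher values, among them the roadblock light chain Dynlrb1 at 1.95-fold higher. Over all genes tested, the median log2 fold change was 0.28 under 1 kb and -0.21 at 4 to 8 kb. Light chain genes are short and kinesin-3 genes long, so role and gene length cannot be fully told apart. The dynein heavy chain Dync1h1 had lower values, unlike most light chains, at 2.54-fold lower. Only Kif1a was called differentially expressed, and by DESeq2 alone. Across the 64 genes the median log2 fold change (cisplatin over vehicle) was -0.12, with 29 genes above 0 and 35 below, beside a median of -0.01 over all genes tested.

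edgeR's quasi-likelihood test with Benjamini-Hochberg adjustment called 0 of the 64 at the thresholds used here (adjusted p under 0.05, change of 1.5-fold or more), where it called 0.00679% of all 14719 genes tested. DESeq2 at those thresholds called 1 of the 64 (1.56%), beside 0.649% of all 15264 genes to which it gave a result. At an unadjusted edgeR p under 0.05, 4 motor genes were higher (6.25%, background 3.74%) and 6 were lower (9.38%, background 5.83%). The 4 were Dynlrb1, Dctn3, Dctn6 and Dynlt1, and the 6 were Kif1a, Dync1h1, Kif13b, Kif5b, Kif26a and Kif7. With a correction for gene length these counts became 1 and 3 (background 1.98% and 5.08%). They also changed when single libraries were left out, as did the background, and each such fit leaves 1 sample in a group. Both cisplatin libraries lay above both vehicle libraries for 13 genes (20.3%, background 20.6%) and below both for 24 genes (37.5%, background 21.2%). With the length correction 14 genes lay below (21.9%, background 18.3%), all of them among the 24, and 16 lay above (25.0%, background 19.5%), among them the 13. With 2 libraries against 2, an exact two-sided permutation test of any single value cannot go below p = 0.333.

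**Figure D1:**
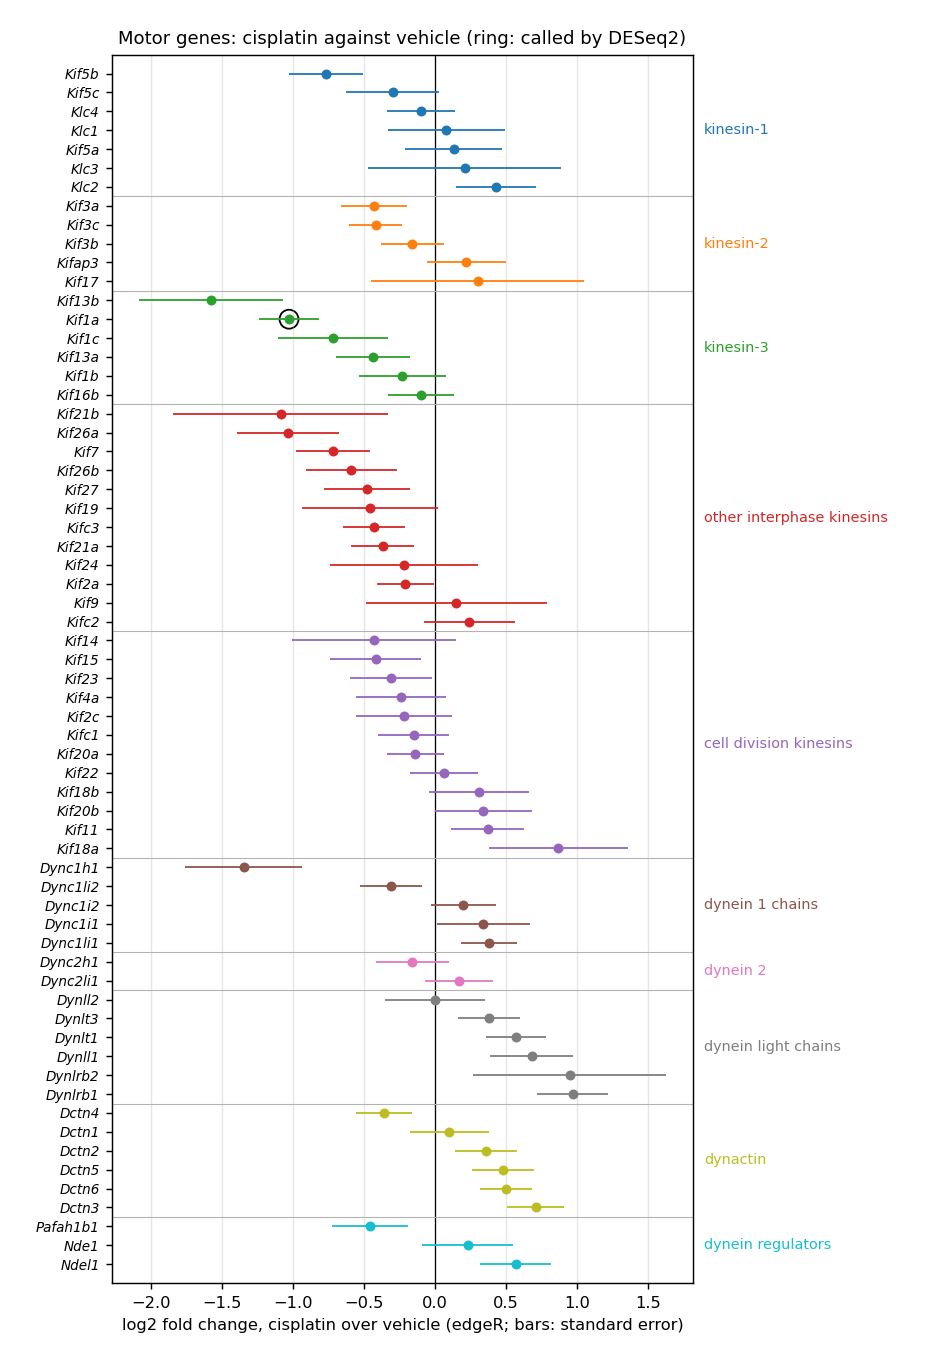
Each point is the edgeR log2 fold change (cisplatin over vehicle, horizontal axis) of 1 of the 64 tested motor genes, grouped by role, with its standard error as a bar and a ring around the gene called by DESeq2. All 6 kinesin-3 genes sit left of 0 in this fit (Kif1b and Kif16b turn with the length correction), Dync1h1 sits at -1.35, and 5 of the 6 dynein light chains and 5 of the 6 dynactin subunits sit right of 0 (Dctn1 turns without vehicle replicate 2 or cisplatin replicate 1).

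The upstream sequences of 3 genes are shown so that a motor gene with lower values (Kif1a), the dynein heavy chain (Dync1h1) and its most abundant light chain (Dynll1, with higher values) can be read side by side. They are the 250 bases before the annotated start from RefSeq (build GRCr8), written 5′ to 3′ on the strand of the gene, with each GC box (GGGCGG or, on the other strand, CCGCCC) in capitals.
Kif1a, chr9:101094778-101095027, minus strand: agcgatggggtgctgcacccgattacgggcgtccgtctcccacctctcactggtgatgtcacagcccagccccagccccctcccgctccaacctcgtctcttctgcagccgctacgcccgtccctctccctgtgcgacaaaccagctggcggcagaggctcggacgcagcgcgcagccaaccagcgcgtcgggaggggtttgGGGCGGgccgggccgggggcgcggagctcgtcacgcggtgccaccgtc
Dync1h1, chr6:135436228-135436477, plus strand: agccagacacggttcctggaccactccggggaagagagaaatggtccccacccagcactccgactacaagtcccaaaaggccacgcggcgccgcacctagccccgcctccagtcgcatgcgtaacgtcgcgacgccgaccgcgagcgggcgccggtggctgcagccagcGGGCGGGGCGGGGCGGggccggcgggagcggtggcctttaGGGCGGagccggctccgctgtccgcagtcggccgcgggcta
Dynll1, chr12:46972827-46973076, plus strand: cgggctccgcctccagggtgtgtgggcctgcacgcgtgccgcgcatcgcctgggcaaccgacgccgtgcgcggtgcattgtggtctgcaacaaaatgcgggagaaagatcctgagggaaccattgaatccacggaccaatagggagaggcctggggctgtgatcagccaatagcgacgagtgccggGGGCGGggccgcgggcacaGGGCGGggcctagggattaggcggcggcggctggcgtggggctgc
The Kif1a stretch holds 1 GC box, that of Dync1h1 holds 4, some of them overlapping by a base, and that of Dynll1 holds 2 together with CCAAT boxes. Genes with lower and with higher values thus both carry the motif. Their GC contents were 71.6%, 73.2% and 68.8%. Of the 51 motor genes matched by symbol, 34 had a GC box in this window, beside 30.5% of all 33469 promoters in the table. A CCAAT box (CCAAT or ATTGG) was found in 21 of the 51, beside 34.0% of all promoters, a TATA box (TATAAA or TTTATA) in 5, beside 12.9%, and an E-box (CACGTG) in 1, beside 5.59%. The 33469 promoters outnumber the 22293 protein-coding genes of the series and were not limited to expressed genes. The 2 sets are thus unlike, and the shares are not a test. A match describes the letters only.

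Among the kinesin-3 genes, Kif1a, which carries synaptic vesicle precursors and dense core vesicles along axons, had the smallest p of all motor genes. Its level in FPKM (fragments per kilobase of gene, scaled to library depth) was 75.9 and 64.2 in the vehicle libraries and 34.2 and 34.4 in the cisplatin libraries. The groups did not overlap, and the cisplatin libraries were nearly the same as each other. The log2 fold change was -1.03 ± 0.21 (SE), with an edgeR adjusted p of 0.509 and a DESeq2 adjusted p of 0.0132. This DESeq2 call was lost when any 1 library was left out, with adjusted p = 0.999 without vehicle replicate 1, 0.216 without vehicle replicate 2, 0.551 without cisplatin replicate 1 and 0.111 without cisplatin replicate 2, while the log2 fold change stayed between -1.15 and -0.90. It was also lost with a correction for gene length, where the log2 fold change was -0.79 and the DESeq2 adjusted p was 0.158. Kif1a lies on chromosome 9 at 100171772 to 100253609 of Rnor_6.0, on the minus strand.

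Kif13b, a kinesin-3 known from membrane trafficking and from myelinating glia, stood at 8.96 and 13.7 FPKM after vehicle and at 2.03 and 5.62 FPKM after cisplatin. It had the largest negative log2 fold change of the tested motor genes, -1.58 ± 0.51 (SE), with an edgeR unadjusted p of 0.0233 and an adjusted p of 0.509. In both groups replicate 2 was the higher library, and replicate 2 was also the library with the higher Schwann cell marker sum. Kif1b, which carries mitochondria and synaptic vesicle precursors, was the most abundant kinesin-3 by the mean over all libraries (53.6 FPKM, beside 52.2 for Kif1a). In both vehicle libraries Kif1a was the higher gene. Kif1b was at 67.3 and 48.4 FPKM after vehicle and at 55.6 and 43.1 FPKM after cisplatin. Its groups overlapped, and its log2 fold change of -0.23 ± 0.31 (SE) became 0.29 with the length correction and 0.02 without vehicle replicate 1. All 6 kinesin-3 genes had a log2 fold change below 0, from -1.58 to -0.10 with a median of -0.58, although Kif1b and Kif16b turned above 0 with the length correction. For 3 of them (Kif1a, Kif1c and Kif13b) both cisplatin libraries were below both vehicle libraries, beside 21.2% of all genes tested. Summed over the 6 genes, the level was 191 and 175 FPKM in the vehicle libraries and 114 and 120 FPKM in the cisplatin libraries. The median was -0.36 with the length correction.

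Among the kinesin-1 genes, which encode the main fast axonal transport motor, most values did not separate the groups. Klc1, the light chain that links kinesin-1 to its cargo, was the most abundant of all 67 motor genes, at 725 and 481 FPKM after vehicle and at 767 and 511 FPKM after cisplatin. The difference between replicates of a group was far larger than that between groups, with a log2 fold change of 0.08 ± 0.41 (SE), which turned to -0.18 without vehicle replicate 2 and to -0.24 without cisplatin replicate 1. The exception was Kif5b, the heavy chain found in most cell types, at 75.2 and 75.0 FPKM after vehicle and at 34.7 and 53.7 FPKM after cisplatin. Both cisplatin libraries lay below both vehicle libraries, with a log2 fold change of -0.77 ± 0.26 (SE), an edgeR unadjusted p of 0.0284 and an adjusted p of 0.509. The neuronal heavy chains Kif5a and Kif5c overlapped between groups, with log2 fold changes of 0.13 ± 0.34 and -0.30 ± 0.33 (SE) that turned sign in 2 alternatives each. The median of the 7 genes was 0.08, and it ran from -0.24 to 0.40 when single libraries were left out.

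In the kinesin-2 group, which moves cargo in axons and builds cilia, 3 of the 4 motor subunits (Kif3a, Kif3b and Kif3c) had a log2 fold change below 0, whereas Kif17 and the accessory subunit Kifap3 were above it. Kif3c, a motor subunit enriched in neurons, was at 57.3 and 62.3 FPKM after vehicle and at 42.9 and 47.0 FPKM after cisplatin. Its groups did not overlap, and the log2 fold change was -0.42 ± 0.19 (SE) with an edgeR unadjusted p of 0.0705. Kifap3, the accessory subunit that binds cargo, was at 69.8 and 53.7 FPKM after vehicle and at 85.6 and 58.3 FPKM after cisplatin. These groups overlapped, and the log2 fold change of 0.22 ± 0.28 (SE) turned to -0.08 without cisplatin replicate 1. Kif3a, the partner of Kif3b and Kifap3, had lower values in both cisplatin libraries, with a log2 fold change of -0.43 ± 0.23 (SE), so that the ratio of Kifap3 to Kif3a in FPKM was 2.76 and 3.02 in the vehicle libraries and 5.06 and 3.84 in the cisplatin libraries. The group median was -0.16, and 0.11 with the length correction.

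Of the 15 other interphase kinesins found, 12 were tested, and 10 of these had a log2 fold change below 0, of which Kif19, Kif21b and Kif24 turned when a library was left out (median -0.45, and -0.28 with the length correction). Both cisplatin libraries were below both vehicle libraries for 7 of the 12 and above for none, beside 21.2% and 20.6% of all genes tested. Over all motor genes the number below fell from 24 to 14 with the length correction. Kif26a, an unconventional kinesin without motor activity that acts in neuronal signalling, was at 1.22 and 1.02 FPKM after vehicle and at 0.409 and 0.687 FPKM after cisplatin. Its log2 fold change was -1.04 ± 0.36 (SE), with an edgeR unadjusted p of 0.0289. Kif7, which organises the tip of the primary cilium in Hedgehog signalling, was at 3.07 and 4.01 FPKM after vehicle and at 1.99 and 2.32 FPKM after cisplatin, a log2 fold change of -0.72 ± 0.26 (SE) with an edgeR unadjusted p of 0.0338. Kifc3, a minus-end directed kinesin, was at 8.54 and 9.68 FPKM after vehicle and at 5.88 and 7.72 FPKM after cisplatin, a log2 fold change of -0.43 ± 0.22 (SE). For these 3 genes the groups did not overlap, and the edgeR adjusted p was 0.509 for Kif26a and Kif7 and 0.564 for Kifc3.

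Kif19, known as a kinesin that trims microtubules at the tips of motile cilia, was the most abundant gene of this group. Its level was 51.4 and 83.2 FPKM after vehicle and 27.8 and 70.5 FPKM after cisplatin. The replicates of a group differed by more than the groups, the higher library in each group was replicate 2, and the log2 fold change of -0.46 ± 0.48 (SE) turned to 0.07 without cisplatin replicate 1. The motile cilium genes measured here, which include the dynein arm genes Dnah5, Dnah9, Dnai1 and Dnai2, summed to 5.93 to 6.75 FPKM per library. Rsph4a of that list had no count. Which cells the Kif19 values come from was not tested.

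The 12 tested cell division kinesins, which build and move the mitotic spindle, were low. Kif20a, a cytokinesis motor and the most abundant of them, was at 5.48 and 5.61 FPKM after vehicle and at 5.09 and 5.03 FPKM after cisplatin. The groups did not overlap but the difference was small, with a log2 fold change of -0.14 ± 0.20 (SE), and the gene overlaps Cdc23 on the other strand over 1910 bases. The others lay between 0.0664 and 5.39 FPKM in single libraries. Of the 12, 5 had a log2 fold change above 0 and 7 below, with a median of -0.15, and none had an unadjusted edgeR p under 0.05. The list of 11 measured dividing cell markers summed to 30.0 and 26.7 FPKM after vehicle and to 33.3 and 35.3 FPKM after cisplatin.

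Cytoplasmic dynein 1 is built on a pair of heavy chains, which hold the motor domain, with intermediate, light intermediate and light chains attached. The heavy chain Dync1h1 was at 16.8 and 8.36 FPKM after vehicle and at 6.15 and 3.77 FPKM after cisplatin. Both cisplatin libraries were lower, but the vehicle libraries differed from each other by more than the lower of them differed from cisplatin replicate 1. The log2 fold change was -1.35 ± 0.41 (SE), with an edgeR unadjusted p of 0.0184 and an adjusted p of 0.509, and it was -0.78 with the length correction. Dync1h1 has the longest deposited gene length of the motor genes, 17600 bases, lies on chromosome 6 at 134958854 to 135085769 of Rnor_6.0, and overlaps Hsp90aa1 on the other strand over 4366 bases, a gene with 80 to 197 counts per library beside 1594 to 7558 for Dync1h1.

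Of the other dynein 1 chains, Dync1li2 also had lower values and the other 3 had a log2 fold change above 0. Dync1li2, a light intermediate chain, was at 75.2 and 60.1 FPKM after vehicle and at 58.2 and 51.2 FPKM after cisplatin. Its groups did not overlap, with a log2 fold change of -0.31 ± 0.22 (SE) and an edgeR unadjusted p of 0.218. Dync1i2, the intermediate chain found in most cells, was at 122 and 102 FPKM after vehicle and at 140 and 117 FPKM after cisplatin. These groups overlapped, with a log2 fold change of 0.20 ± 0.23 (SE). Dync1i1, the neuronal intermediate chain, had a log2 fold change of 0.34 ± 0.33 (SE), which turned to -0.05 without cisplatin replicate 1, and its groups overlapped as well. Intermediate chains summed to 11.9 and 18.3 times the level of Dync1h1 in the vehicle libraries and to 39.3 and 47.8 times in the cisplatin libraries. Both intermediate chains overlapped between the groups, so this ratio mostly restates the Dync1h1 values. The intermediate chain genes are 2.64 and 2.82 kb long and Dync1h1 is 17.6 kb, and the ratio is not corrected for gene length. In dynein 2, the motor of retrograde transport in cilia, Dync2li1 was at 6.47 and 7.91 FPKM after vehicle and at 7.45 and 8.84 FPKM after cisplatin, and Dync2h1, its heavy chain, had a log2 fold change of -0.16 ± 0.26 (SE) that became 0.30 with the length correction. The groups overlapped for both.

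Dynein light chains had the highest median of the role groups, 0.63 over 6 genes, and 0.38 with the length correction. Dynlrb1, a roadblock light chain that binds the intermediate chains, was at 179 and 259 FPKM after vehicle and at 420 and 439 FPKM after cisplatin. Both cisplatin libraries lay far above both vehicle libraries, with a log2 fold change of 0.97 ± 0.25 (SE), an edgeR unadjusted p of 0.00954 and an adjusted p of 0.509. Its log2 fold change was 0.69 with the length correction. Its ratio to Dync1h1 in FPKM was 10.6 and 31.0 after vehicle and 68.2 and 116 after cisplatin. This ratio restates the values of both genes, which moved in opposite directions, and is no further result. It is not corrected for gene length, which is 0.658 kb for Dynlrb1 and 17.6 kb for Dync1h1. Dynll1, the LC8 light chain that also serves many partners outside dynein, was at 336 and 529 FPKM after vehicle and at 657 and 739 FPKM after cisplatin, a log2 fold change of 0.68 ± 0.29 (SE) with an edgeR unadjusted p of 0.0617. Dynlt1, a Tctex-type light chain, was at 38.7 and 48.9 FPKM after vehicle and at 60.2 and 70.7 FPKM after cisplatin, a log2 fold change of 0.57 ± 0.21 (SE) with an edgeR unadjusted p of 0.0393.

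Dynlt3 also had both cisplatin libraries on top (0.38 ± 0.22, SE, on the log2 scale). Dynll2, the paralog of Dynll1, did not, at 352 and 216 FPKM after vehicle and 332 and 237 FPKM after cisplatin with a log2 fold change of 0.00 ± 0.35 (SE). Dynlrb2, the paralog of Dynlrb1, was close to the limit of the depth, with 10 and 12 counts after vehicle and 36 and 12 counts after cisplatin. Light chains with higher values were thus Dynlrb1, Dynll1, Dynlt1 and Dynlt3, and their summed level with the other tested light chains was 1009 and 1146 FPKM in the vehicle libraries and 1615 and 1598 FPKM in the cisplatin libraries.

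**Figure D2:**
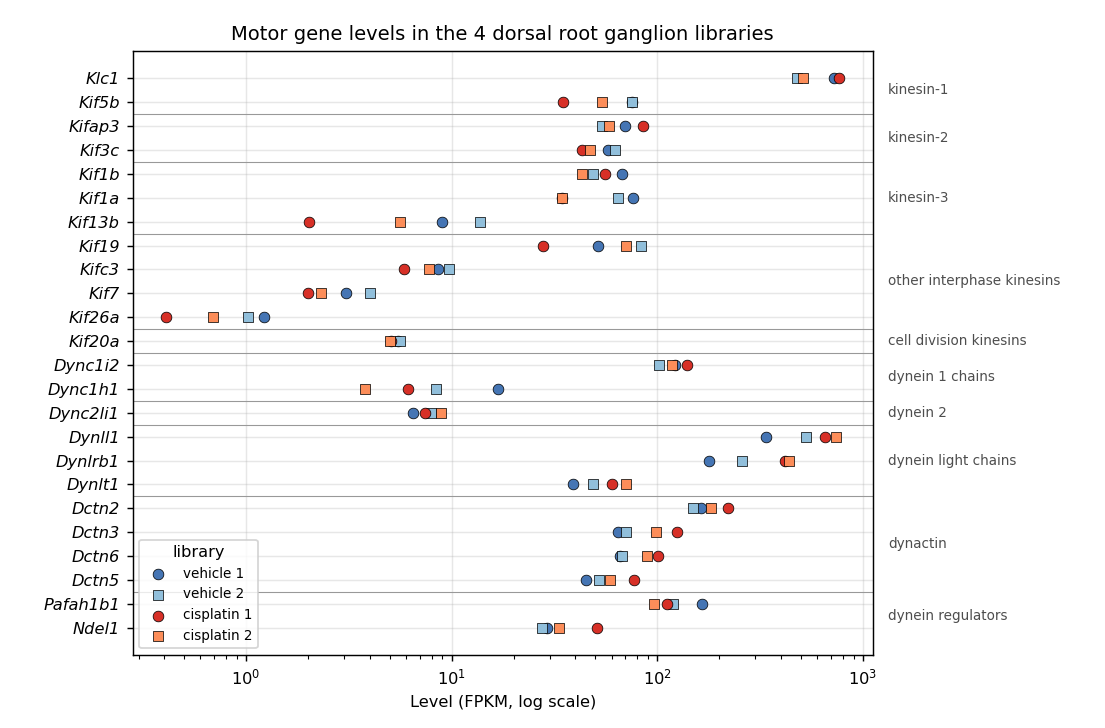
Each row is 1 motor gene, and each point is its level (FPKM, log scale) in 1 of the 4 libraries, blue for vehicle and red for cisplatin, with circles for replicate 1 and squares for replicate 2. The red points of Kif1a (34.2 and 34.4) lie left of the blue ones (75.9 and 64.2), those of Dynlrb1 (420 and 439) lie right of them (179 and 259), and for Klc1 the replicates lie farther apart than the groups.

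Dynactin, the complex that makes dynein processive and links it to cargo, had a median of 0.42 over its 6 genes, and of 0.31 with the length correction. Dctn3, which encodes p24 of the shoulder, was at 64.5 and 70.6 FPKM after vehicle and at 124 and 98.6 FPKM after cisplatin. Its groups did not overlap, and the log2 fold change was 0.71 ± 0.20 (SE) with an edgeR unadjusted p of 0.0136 and an adjusted p of 0.509. A processed pseudogene copy of Dctn3 had 33 and 33 counts after vehicle and 81 and 65 after cisplatin, against 1371 to 3080 for Dctn3 itself, so the assignment of some reads is uncertain. Dctn6, p27 of the pointed end, was at 65.8 and 67.4 FPKM after vehicle and at 100.4 and 89.3 FPKM after cisplatin, a log2 fold change of 0.50 ± 0.18 (SE) with an edgeR unadjusted p of 0.0315. Dctn5, p25 of the pointed end, was at 45.0 and 52.3 FPKM after vehicle and at 77.3 and 59.1 FPKM after cisplatin, a log2 fold change of 0.48 ± 0.22 (SE).

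Dctn2, dynamitin, which holds the shoulder to the filament, was the most abundant dynactin gene at 164 and 150 FPKM after vehicle and 220 and 183 FPKM after cisplatin. Its log2 fold change was 0.36 ± 0.22 (SE), and it overlaps Kif5a on the other strand over 809 bases. Dctn1, which encodes p150Glued, the subunit that grips dynein and the microtubule, had overlapping groups (0.10 ± 0.28, SE, on the log2 scale, and down to -0.14 with a library left out). Dctn4, p62 of the pointed end, was the exception, with both cisplatin libraries below both vehicle libraries and a log2 fold change of -0.36 ± 0.20 (SE). The 6 genes summed to 497 and 464 FPKM after vehicle and to 685 and 555 FPKM after cisplatin. In TMM-scaled CPM the groups overlapped, with sums of 1157 and 1027 after vehicle and 1472 and 1153 after cisplatin.

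Among the dynein regulators, Pafah1b1 (LIS1), which locks dynein to the microtubule and helps it assemble with dynactin, was at 166 and 120 FPKM after vehicle and at 112 and 96.1 FPKM after cisplatin. Its groups did not overlap, and the log2 fold change was -0.46 ± 0.27 (SE) with an edgeR unadjusted p of 0.147. Ndel1, which recruits LIS1 to dynein, went the other way, at 29.0 and 27.4 FPKM after vehicle and at 50.9 and 33.2 FPKM after cisplatin, a log2 fold change of 0.57 ± 0.25 (SE) with an edgeR unadjusted p of 0.0666. Its paralog Nde1 overlapped between the groups.

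Within families of close paralogs the make-up was compared as the share of each gene in the summed FPKM of its family. Kif1a made up 44.8% and 43.1% of the Kif1 transcripts in the vehicle libraries and 33.5% and 33.3% in the cisplatin libraries, a difference of -10.6 points, whereas the share of Kif1b was 39.7% and 32.5% after vehicle and 54.4% and 41.6% after cisplatin. Kif13b made up 60.8% and 64.6% of the Kif13 transcripts after vehicle and 33.6% and 49.1% after cisplatin. The vehicle and cisplatin libraries did not overlap in any of these shares. Dync1li1, a dynein light intermediate chain that holds cargo adaptors, made up 33.6% and 35.9% of its pair after vehicle and 47.4% and 44.8% after cisplatin, a difference of 11.3 points, while the summed level of Dync1li1 and Dync1li2 stayed between 92.6 and 113 FPKM. Kif5a made up 46.5% and 43.3% of the kinesin-1 heavy chains after vehicle and 61.9% and 50.3% after cisplatin. The shares of Kif5b (26.5% and 35.4% against 14.5% and 27.7%) and of Dynll1 in the LC8 pair (48.8% and 71.0% against 66.4% and 75.7%) overlapped between the groups. So did those of Kif5c, Kif1c and Klc3 and every share among the kinesin-2 motors and the dynein 1 intermediate chains. Those of Klc1, Klc2 and Klc4 did not. Shares within a family depend on each other. A permutation test of such a share cannot go below p = 0.333 here, so these are descriptions. They are not corrected for gene length, which is 1.81 kb for Dync1li1 and 4.98 kb for Dync1li2.

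**Figure D3:**
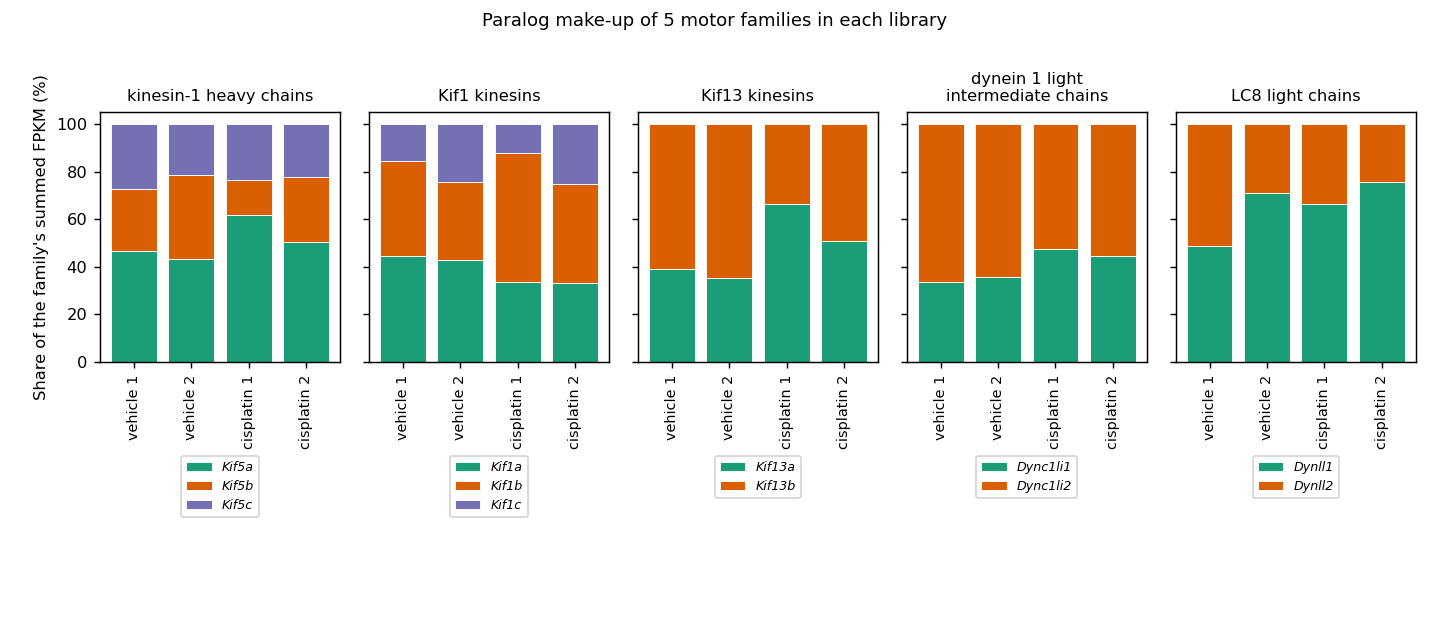
Stacked bars give the share of each paralog (percent of the family's summed FPKM, vertical axis from 0) in each of the 4 libraries for 5 motor families. The Kif1a share is 44.8% and 43.1% in the vehicle libraries and 33.5% and 33.3% in the cisplatin libraries, and the Dync1li1 share is 33.6% and 35.9% against 47.4% and 44.8%.

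Gene length moved with the fold change, both over all genes and among the motor genes. Over all 14719 genes tested the median log2 fold change was 0.28 for genes under 1 kb, 0.12 for those of 1 to 2 kb, -0.03 for those of 2 to 4 kb, -0.21 for those of 4 to 8 kb and -0.40 for those of 8 kb or more. The motor genes had medians of 0.71 (5 genes), 0.36 (7 genes), 0.06 (25 genes), -0.39 (24 genes) and -0.23 (3 genes) in the same classes. Dynein light chains are the shortest role group, with a median length of 693 bases, and kinesin-3 genes are among the longest, with a median of 5864 bases, so role and length cannot be fully told apart. Spearman's rho between length and log2 fold change was -0.633 over the 64 motor genes and -0.357 over all genes, and -0.372 and -0.00157 after the length correction. These describe genes of the same 4 libraries and are not a test. With the correction the median of the motor genes was 0.07, beside 0.01 over all genes.

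**Figure D4:**
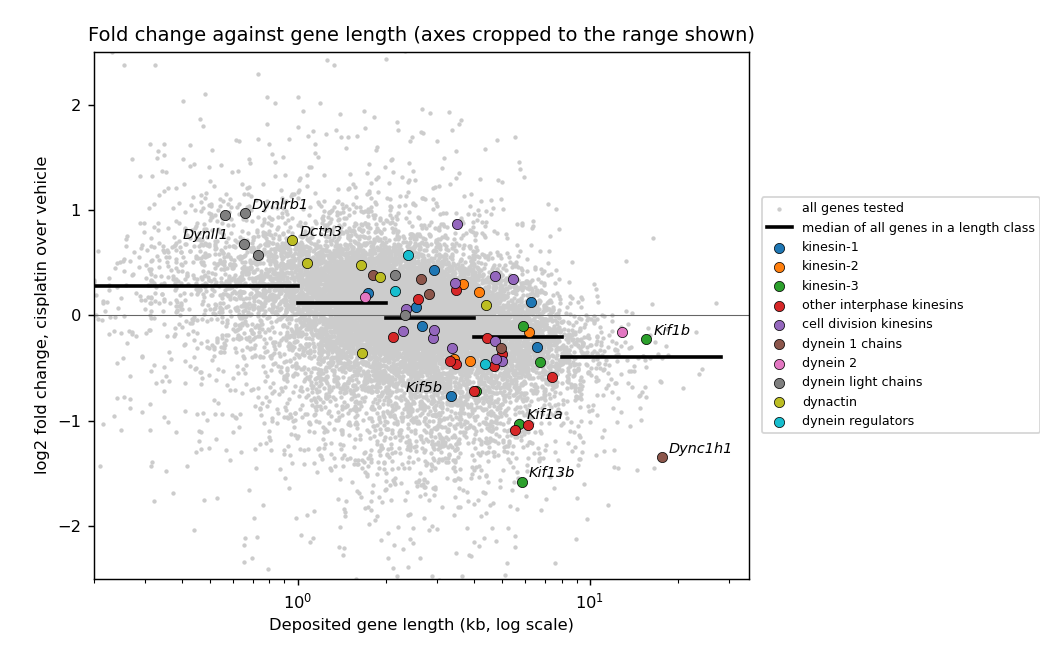
Log2 fold change (cisplatin over vehicle, vertical axis) against deposited gene length (kb, log scale) for all genes tested (grey) and the 64 motor genes (coloured by role), with black lines at the median of all genes in each length class. Dynlrb1 (0.97) and Dctn3 (0.71) lie above the median of genes under 1 kb (0.28), and Kif1a (-1.03) and Kif13b (-1.58) lie below that of genes of 4 to 8 kb (-0.21).

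Cell type markers also moved between libraries. The 12 neuron markers all had a log2 fold change above 0 (median 0.30, none with an unadjusted edgeR p under 0.05), and their TMM-scaled sum was 33388 and 25702 CPM after vehicle and 41543 and 29551 CPM after cisplatin. The 10 Schwann cell markers all had one below 0 (median -0.49, none with an unadjusted edgeR p under 0.05), and their sum was 62703 and 158718 CPM after vehicle and 48742 and 138880 CPM after cisplatin. Neither sum separated the groups, and none of the 22 markers was at 0 in any library. The Schwann cell sum differed more between replicates than between treatments. The fibroblast and meninges marker sum did separate the groups, narrowly, at 9060 and 12422 CPM after vehicle and 4453 and 8948 CPM after cisplatin. In that list 6 genes were below 0 and 3 above, and DESeq2 called Col1a2 (log2 fold change -1.59). The dividing cell sum was higher in both cisplatin libraries, and the satellite glial cell, macrophage, motile cilium and erythroid sums overlapped. Of the 64 motor genes, 32 were lower in replicate 2 than in replicate 1 in both groups, among them Klc1, Kif1b and Dync1h1, and 20 were higher in both, among them Kif13b, Kif19 and Dynlrb1. In whole ganglia fewer cells of a type and less RNA per cell cannot be told apart, and the part of the cell make-up in the values of the motor genes was not tested. All 12 neuron markers had a log2 fold change above 0 and Kif1a one below it, but the neuron marker sum did not separate the groups. That sum was 29551 CPM in cisplatin replicate 2 and 33388 CPM in vehicle replicate 1. How far Kif1a follows the neuron content was not tested.

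Partners of the motors were read from lists of other transport genes. Of the 10 tested dynactin and dynein genes with other symbols, such as the Arp1 filament genes Actr1a and Actr1b and the capping protein genes, 8 had a log2 fold change above 0 and 2 below (median 0.24), and none had an unadjusted edgeR p under 0.05. Of the 28 cargo adaptors tested, 10 were above 0 and 18 below (median -0.12), and of the 17 microtubule-associated proteins 6 were above and 11 below (median -0.13). Nin, ninein, which anchors microtubules and can activate dynein, was at 0.746 and 0.828 FPKM after vehicle and at 0.327 and 0.285 FPKM after cisplatin, with a log2 fold change of -1.37 ± 0.31 (SE) and an edgeR unadjusted p of 0.00524. Bicd1, a dynein cargo adaptor, was at 4.11 and 3.39 FPKM after vehicle and at 1.88 and 2.40 FPKM after cisplatin, with a log2 fold change of -0.82 ± 0.25 (SE) and an edgeR unadjusted p of 0.0203. Map2, a microtubule-associated protein of neuronal cell bodies and dendrites, was at 11.4 and 4.88 FPKM after vehicle and at 3.51 and 3.46 FPKM after cisplatin, with a log2 fold change of -1.23 ± 0.40 (SE). The groups of all 3 did not overlap, and neither edgeR nor DESeq2 called any partner gene at the adjusted threshold. The mitotic kinesin-7 gene Cenpe had a log2 fold change of -0.15 ± 0.28 (SE).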

How the data were processed

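Whole lumbar DRGs were sequenced as 4 libraries, 2 per treatment, and samples were grouped from their labels. Per the labels and methods, the authors selected polyadenylated RNA, mapped reads to Ensembl Rnor_6.0 with HISAT2 (2.0.5 in the submitters' processing notes), assembled transcripts with StringTie (1.3.3b) and deposited raw counts per gene; featureCounts (1.5.0-p3) is also in those notes. The strand setting is not given in the sources used here, so reads of overlapping genes on opposite strands cannot be told apart. The authors also deposited FPKM values, which are counts over gene length, scaled by 1 constant per library; levels were compared between genes only on this scale. Gene lengths and coordinates are those deposited.

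Counts of protein-coding genes were filtered with filterByExpr, normalised with TMM (factors 0.938 to 1.10) and tested with the quasi-likelihood F test of edgeR 4.0.16 in R 4.3.3. Benjamini-Hochberg adjustment ran over 14719 genes, and calls needed an adjusted p under 0.05 with a change of 1.5-fold or more. The counts were also run through DESeq2 1.42.0. For the length correction, the deviation of each library was smoothed over gene length by lowess (span 0.3) and entered as an offset. FPKM was also fitted with limma 3.58.1 on log2(FPKM + 1) and log2(FPKM + 0.1), a scale that understates the change of low genes. Non-overlap was read from TMM-scaled CPM. The fits were tested on simulated data. Genes named with values were those called, the most abundant of each role group and the 15 with the smallest edgeR p; for partners, the 3 smallest. Any further motor gene with values was picked once values were known. The motor genes and all lists were chosen with earlier results of these data known. Alternatives were other size factors, filters and biotypes, the replicate block, and each library left out in turn; the earlier form of the edgeR fit, and DESeq2 with libraries left out or with the length correction, were chosen after seeing the data. The libraries are separate rats per the labels, and p-values measure the spread between these samples only. A floor of 3 counts is 0.118 to 0.152 CPM and covers counting error only, since the sources used here mention no molecular identifiers. A genome was not used here.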

Additional observations from a re-analysis of the deposited data

How the results depend on the processing

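Under the replicate block edgeR called 3 motor genes higher and 7 lower, and 1 and 5 when the replicate block was joined with the length correction, where the fit without it called 0 and 0. These are 15.6% and 9.38% of the motor genes, beside 11.3% and 7.35% of all genes. At an unadjusted p under 0.05 the replicate block gave 12 higher and 19 lower (14.7% and 17.8% of all genes) and, with the length correction, 19 and 14 (13.1% and 14.7% of all genes); the length correction alone gave 1 and 3. The rats numbered 1 and 2 in the labels are different animals, and the labels do not say what samples with the same number share. The differences between replicates correlated between the groups with Pearson's r = 0.652 over the 64 motor genes and 0.444 over all genes. DESeq2 called 0 higher and 1 lower (Kif1a). Kif1a was not called when any 1 library was left out, and the genes called changed with the library left out. When single libraries were left out of the edgeR fit, 0 to 4 genes were higher and 3 to 7 lower at an unadjusted p under 0.05. The 24 genes with non-overlapping lower values became 14 with the length correction.

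The kinesin-1 median ran from -0.24 to 0.40 over left-out libraries. With the length correction, alone and with the replicate block, the kinesin-2 median was 0.11 and 0.11, that of the other interphase kinesins -0.28 and -0.27, of the cell division kinesins -0.07 and -0.06, and of the dynein light chains 0.38 and 0.39. With limma on log2(FPKM + 1) the medians of the other interphase and the cell division kinesins were -0.33 and -0.06, and with library size alone that of the former was -0.50. Over left-out libraries these medians ran from -0.53 to -0.17 for the other interphase kinesins and from 0.44 to 0.91 for the light chains. Directions turned for Klc1 (-0.24 to 0.40 over left-out libraries), Kif1b (0.29 with the length correction, 0.29 with the replicate block added, -0.44 to 0.02 over left-out libraries), Kifap3 (-0.08 to 0.47) and Kif19 (-1.28 to 0.07), both of which turned without cisplatin replicate 1. The cause was not tested, beyond the length curve's own construction. Of the 64 motor genes 20 turned in at least 1 alternative, among them Kif5a, Kif5c, Dctn1, Dync1i1 and Dync2h1. The other 44 were not counted as turned. They include Dynll2, which was at 0.00 and ran from -0.30 to 0.39 over the alternatives, so it had no direction to keep. The paralog shares of Kif1a, Kif5b, Dync1li1 and Dynll1 kept their direction when single libraries were left out. For Dynll1 without vehicle replicate 1 the share was 71.0% after vehicle against a mean of 71.1% after cisplatin. Shares from counts per length equal those from FPKM by construction and are no check. A library left out leaves 1 sample that is assumed to vary like the others.

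With 2 libraries per group, a motor gene that was not called is not shown to be unaffected. Low genes such as Kif14, Kif17, Klc3 and Dynlrb2 are limited by counting error. Shares, ratios, sums and medians carry no test here, and shares, ratios and sums are not corrected for gene length.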
